A study of Mus musculus with 6 samples.

Results

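The genes described here encode the machinery that carries proteins into mitochondria and the factors that fuse, divide, move and maintain these organelles. Their transcripts were measured in the cochlea of mice with and without a working *Cmah* gene. Members were all genes on the array whose symbol is *Timm* or *Tomm* followed by a number, and 15 genes named singly: the fusion factors *Mfn1*, *Mfn2* and *Opa1*, the fission factors *Dnm1l* and *Fis1*, the transport GTPases *Rhot1* and *Rhot2*, the mitophagy genes *Pink1* and *Park2*, the proteases *Lonp1* and *Clpp*, the prohibitins *Phb* and *Phb2*, and the processing peptidase subunits *Pmpca* and *Pmpcb*. Of 18138 gene symbols, 31 were members, with 50 probes, and the probe with the highest mean signal stood for each gene. *Pink1* and *Lonp1* were not matched by symbol and were not analysed here.

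Total RNA of cochlear tissue from 3 WT and 3 *Cmah*-null mice was hybridised to Illumina MouseRef-8 v2 bead arrays, 1 for each sample, which carry 25697 probes. Both groups were 12 months old and of the C57BL/6 strain (C57BL/6J in the methods), so they shared age and background and differed by the disruption of *Cmah*, the enzyme that makes the sialic acid Neu5Gc. The study asked which genes differ in the cochlea of mice that lose hearing with age. The columns of the second group are named old in the files and were taken as *Cmah*-null because the other 3 are WT. The signal of the only *Cmah* probe was 7.27, 7.28 and 7.87 on the log2 scale in WT and 7.95, 7.98 and 7.27 in *Cmah*-null, detected on 1 WT and 2 *Cmah*-null arrays only, so it did not check the genotype labels.

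Mitochondria make only a few of their own proteins, and all others are made in the cytosol and imported. The TOM complex is the gate in the outer membrane. From there the small TIM chaperones escort carrier proteins to the TIM22 translocase, and proteins with a cleavable presequence pass through TIM23, are pulled in by a motor anchored on *Timm44*, and are trimmed by the processing peptidase. Mitofusins and *Opa1* fuse the outer and inner membranes, *Dnm1l* and its receptors divide them, and the Rhot GTPases tie mitochondria to the motors that carry them along microtubules. Cochlear hair cells, the stria vascularis and neurons have a high demand for mitochondrial energy.

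A short sequence that the choice of members did not use recurred in the promoters of many, but not all, of these genes. RefSeq promoter windows on GRCm38.p6, from 250 bases before to 50 bases after each transcript start, were matched for 29 of the 31 members. The ETS element CCGGAAG, read on both strands, stood in the window of 15 of these 29 genes (51.7%), against 9.93% of the 27025 genes with a window. Other mitochondrial genes were not counted separately. The core of the NRF-1 element, GCATGCGC, stood in 2 member genes (6.9% against 3.05%), the nuclear receptor element AAGGTCA in 3 (10.3% against 5.38%) and the YY1 element AAGATGGCG in 1 (3.45% against 1.64%). ETS factors such as GABP, also called NRF-2, and NRF-1 are known activators of nuclear genes for mitochondria. A match is a run of letters, not a binding site, and binding of these factors was not measured. The bases before the start that carry CCGGAAG, or its reverse complement CTTCCGG, in capitals, are shown for 8 members picked as examples, each 5′ to 3′ on the strand of its gene. Other members hold the element and are not shown, among them *Clpp*, *Dnm1l* and *Phb2*. The *Tomm22* stretch holds both readings, overlapping. *Tomm70a* has 2 matches before its start, of which the nearer is shown.
Timm8b, chr9:50603849-50603900, plus strand: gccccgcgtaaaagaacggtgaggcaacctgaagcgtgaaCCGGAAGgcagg
Timm10, chr2:84826965-84827020, plus strand: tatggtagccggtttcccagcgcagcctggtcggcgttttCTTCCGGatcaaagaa
Tomm22, chr15:79670784-79670860, plus strand: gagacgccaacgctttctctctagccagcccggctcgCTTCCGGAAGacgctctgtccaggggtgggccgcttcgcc
Tomm70a, chr16:57121666-57121713, plus strand: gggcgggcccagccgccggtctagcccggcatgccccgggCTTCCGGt
Pmpcb, chr5:21737104-21737159, plus strand: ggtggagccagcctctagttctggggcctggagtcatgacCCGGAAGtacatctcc
Fis1, chr5:136953217-136953274, plus strand: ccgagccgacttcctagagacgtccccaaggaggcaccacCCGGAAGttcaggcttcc
Mfn1, chr3:32529398-32529474, plus strand: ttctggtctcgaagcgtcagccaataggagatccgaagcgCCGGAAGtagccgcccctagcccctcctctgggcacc
Rhot2, chr17:25844547-25844623, minus strand: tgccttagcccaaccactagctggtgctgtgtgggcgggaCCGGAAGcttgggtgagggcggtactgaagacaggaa
The capitals lie from 8 bases (*Tomm70a*) to 58 bases (*Rhot2*) before the start, counted from their first base. The 15 genes with the element and the 14 without it were compared between the genotypes: the median log2 difference was -0.21 with 9 lower and 6 higher in the former, and -0.14 with 9 lower and 5 higher in the latter. Both counts include genes near background, which have no usable difference. With the element these are *Pmpca*, *Timm23* and *Timm8a2*, all counted as higher. Without it they are *Opa1* and *Phb*, counted as lower, and *Tomm40*, counted as higher.

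Signals are given as log2 values, quantile normalised between arrays, and a difference is the *Cmah*-null mean minus the WT mean of the same probe, so a negative value means less signal in *Cmah*-null. A probe was called detected on an array where its detection p was under 0.05. Of the 31 members, 24 were detected on all 6 arrays. *Park2*, *Phb*, *Timm23* and *Timm8a2* were detected on no array, and *Opa1*, *Pmpca* and *Tomm40* on 2 or fewer arrays of each group, so no fold is given for these 7. Arrays fell into a set with fewer beads per probe (WT replicate 1 and *Cmah*-null replicates 1 and 2, median 32 to 34) and a set with more (WT replicates 2 and 3 and *Cmah*-null replicate 3, median 38 to 39). *Cmah*-null replicates 1 and 2 lay close together, with a SD of their differences of 0.11 over the members, against 0.16 to 0.43 for other pairs without *Cmah*-null replicate 3 and 0.78 to 0.90 for pairs with it. Results are therefore also given within the bead sets and without replicate 3.

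No member differed between the genotypes after adjustment over all probes, and the same held for every probe on the array (0% of 25697, limma, smallest adjusted p = 0.25). At an unadjusted p under 0.05, 1 member was lower in *Cmah*-null (*Timm44*, 3.23% of members against 3.78% of all probes) and 2 were higher (*Clpp* and *Tomm6*, 6.45% against 4.77%). Among probes detected on all arrays these 3 made up 12.5% of 24 members, against 13.3% of all such probes. None of the members passed both 1.5-fold and an unadjusted p under 0.05, which 2.71% of all probes did. The members' shares at these thresholds were near those of the array as a whole.

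By size alone more members had lower than higher signal in *Cmah*-null, and the lean of the median rested on 1 array. In *Cmah*-null, 5 members were at least 1.5-fold lower, namely *Timm8b*, *Pmpcb*, *Timm17a*, *Tomm70a* and *Tomm7* (16.1% against 3.28% of all probes, and 20.8% against 6.26% among detected probes), and none was at least 1.5-fold higher (0% against 2.67%). The median difference was -0.21 over the members, with 19 lower and 12 higher, against 0.00 over all probes. Over the 24 members detected on all arrays it was -0.26, with 17 lower and 7 higher, against 0.03 over detected probes. Without *Cmah*-null replicate 3 the median difference was 8e-04 over all members and -0.05 over the detected ones. Of the 5 members at 1.5-fold, *Pmpcb* and *Tomm70a* were then lower still, at -1.11 and -0.80. The differences of *Timm8b*, *Timm17a* and *Tomm7* shrank to -0.08, -0.29 and -0.04. Under median scaling the median over all members was 0.05, with 12 lower and 19 higher, but that of the detected probes itself moved to 0.30. Relative to the detected probes the members lay at -0.25, with 24 lower and 7 higher, close to the -0.24 without that scaling. These 24 include all 7 members near background, which have no usable difference. Of those, *Park2*, *Pmpca*, *Timm23*, *Timm8a2* and *Tomm40* had positive differences without that scaling. With it *Timm23* and *Timm8a2* were themselves negative (-0.11 and -0.06). *Park2*, *Pmpca* and *Tomm40* counted as lower only relative to the detected probes. All 3 *Cmah*-null values lay below all 3 WT values for 4 members, namely *Mfn1*, *Timm17a*, *Timm44* and *Timm8a1* (12.9% against 7.33% of all probes), and above them for 3, namely *Clpp*, *Tomm40* and *Tomm6* (9.68% against 9.11%). Of these *Tomm40* is near background. Among the 24 detected members 4 lay below and 2 above, against 976 and 1423 of 12410 detected probes. With 3 arrays against 3, the exact two-sided permutation test of a single gene cannot give a p below 0.1. In bulk tissue, fewer cells of a type and less RNA per cell cannot be told apart.

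**Figure D1:**
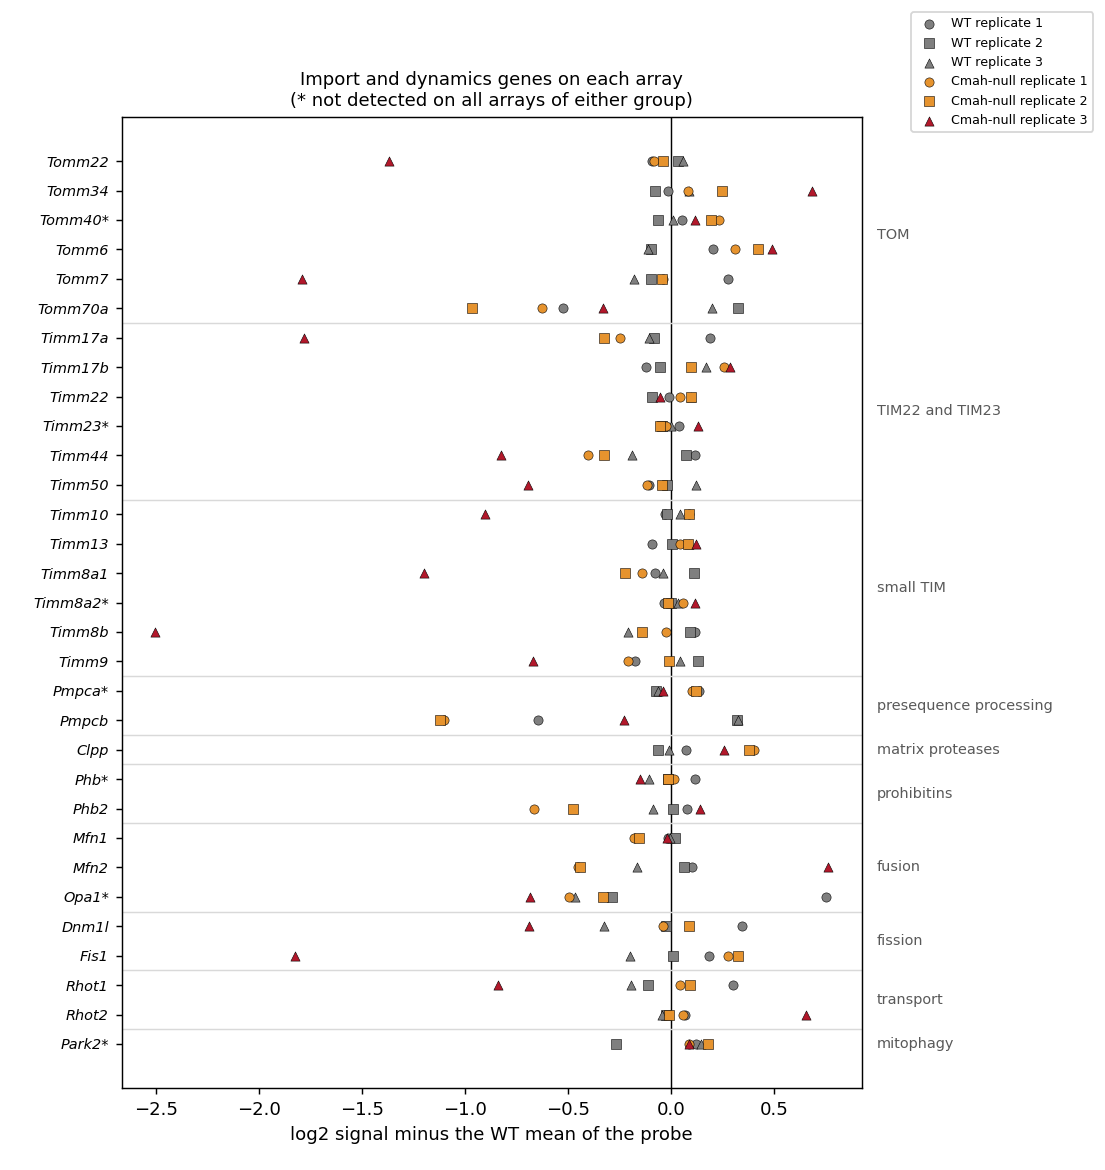
Each point is the log2 signal of 1 gene on 1 array minus the WT mean of the same probe, with genes grouped by role. *Cmah*-null replicate 3 (red triangles) sits far to the left for *Timm8b*, *Fis1*, *Tomm7*, *Timm17a* and *Tomm22*, while *Cmah*-null replicates 1 and 2 lie among the WT arrays for most of these.

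Of the TOM subunits, the receptor *Tomm70a*, which binds carrier precursors held by cytosolic chaperones, read 8.83, 9.68 and 9.55 in WT and 8.73, 8.39 and 9.03 in *Cmah*-null. WT replicate 1 was as low as the *Cmah*-null arrays, so the groups overlapped. The difference was -0.64 (SE 0.27, 1.56-fold lower, unadjusted p = 0.059, adjusted p = 0.60 by limma), with -0.27 within the arrays of fewer beads and -0.59 within those of more. It was -0.80 without *Cmah*-null replicate 3 and from -0.90 to -0.48 as each array was left out, so *Tomm70a* was low on more than 1 *Cmah*-null array.

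*Tomm7*, a small subunit that modulates the stability of the TOM complex, read 11.59, 11.22 and 11.14 in WT and 11.28, 11.27 and 9.52 in *Cmah*-null. A single array made its difference of -0.62 (SE 0.50, adjusted p = 0.75), which was -0.04 without *Cmah*-null replicate 3. *Tomm22*, the central receptor of the complex, had the same shape at 11.57, 11.70 and 11.72 in WT and 11.58, 11.62 and 10.29 in *Cmah*-null.

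*Tomm6*, another small subunit that steadies the complex, went the other way, at 8.96, 8.66 and 8.64 in WT and 9.07, 9.17 and 9.24 in *Cmah*-null. Every *Cmah*-null array lay above every WT array. The difference was 0.41 (SE 0.11, 1.33-fold higher, 95% interval 0.13 to 0.69, unadjusted p = 0.012, adjusted p = 0.48), and it was 0.16 within the arrays of fewer beads and 0.59 within those of more. *Tomm34*, a cytosolic helper of import rather than a subunit of the gate, was higher by 0.34 (SE 0.17) with its brighter probe and by 0.10 (SE 0.22) with its other probe. *Tomm40*, the channel itself, was near background on all arrays.

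Among the inner membrane translocases, *Timm44*, which tethers the import motor to TIM23, read 10.45, 10.40 and 10.14 in WT (mean 10.33 ± 0.17, SD, n = 3) and 9.93, 10.01 and 9.50 in *Cmah*-null (9.81 ± 0.27, SD, n = 3). The groups did not overlap. The difference was -0.52 (SE 0.16, 1.43-fold lower, 95% interval -0.92 to -0.11, unadjusted p = 0.021, adjusted p = 0.53), and its 2 other probes gave -0.46 and -0.34. It was -0.48 and -0.77 within the 2 bead sets and -0.36 without *Cmah*-null replicate 3. *Timm44* was thus lower in both sets and on all probes. Its unadjusted p was under 0.05 in 13 of 18 settings, was 0.066 without WT replicate 1 or 2, and its difference was -0.12 under median scaling.

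*Timm17a*, a channel-forming partner of *Timm23*, read 13.24, 12.96 and 12.94 in WT and 12.80, 12.72 and 11.27 in *Cmah*-null. *Cmah*-null replicate 3 stood 3.17-fold below the mean of the other arrays, and the remaining *Cmah*-null arrays were just under the lowest WT value. The difference was -0.78 (SE 0.42, adjusted p = 0.66) and -0.29 without that array. Its paralog *Timm17b* differed by 0.21 (SE 0.11), *Timm22* by 0.03 (SE 0.09), and the presequence receptor *Timm50* by -0.28 (SE 0.19).

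Of the small TIM chaperones, *Timm8b* had the largest SE of all members, and *Timm13* and *Timm8a2* had SEs of 0.08 and 0.07. *Timm8b*, a chaperone of the intermembrane space and a relative of the gene mutated in human deafness-dystonia syndrome, read 12.37, 12.34 and 12.04 in WT and 12.23, 12.11 and 9.75 in *Cmah*-null. Its second probe read 11.31, 11.06 and 10.73 against 11.13, 11.14 and 8.93. Both probes were within the WT range on the first and second *Cmah*-null arrays and far below it on the third. The group difference of the brighter probe was -0.89 (SE 0.68, 1.85-fold lower, adjusted p = 0.74), and -0.08 without *Cmah*-null replicate 3.

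*Timm8a1*, the mouse counterpart of that deafness-dystonia gene, read 11.11, 11.30 and 11.15 in WT and 11.05, 10.96 and 9.99 in *Cmah*-null. The groups did not overlap, although *Cmah*-null replicates 1 and 2 lay close under the lowest WT value, and the difference was -0.52 (SE 0.29, adjusted p = 0.67). *Timm10*, which forms a hexamer with *Timm9*, read 9.64, 9.65 and 9.71 against 9.75, 9.75 and 8.76, so that *Cmah*-null replicates 1 and 2 were the highest of all and replicate 3 the lowest. *Timm9* differed by -0.30 (SE 0.19) with its brightest probe, and its other detected probes gave -0.22 and 0.00. *Timm13* differed by 0.08 (SE 0.08).

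*Pmpcb*, the catalytic subunit of the peptidase that removes presequences, read 9.09, 10.06 and 10.06 in WT and 8.64, 8.62 and 9.51 in *Cmah*-null. WT replicate 1 lay below *Cmah*-null replicate 3, so the groups overlapped, but within each bead set the *Cmah*-null arrays were lower, by -0.47 and -0.55. The difference was -0.82 (SE 0.37, 1.76-fold lower, 95% interval -1.72 to 0.09, unadjusted p = 0.069, adjusted p = 0.61). With bead number as a block it was -0.51 (SE 0.07, unadjusted p = 0.00069, adjusted p = 0.10), and without *Cmah*-null replicate 3 it was -1.11.

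*Clpp*, the proteolytic subunit of the ClpXP protease of the matrix and a gene whose loss causes deafness in Perrault syndrome, read 10.81, 10.67 and 10.73 in WT (mean 10.74 ± 0.07, SD, n = 3) and 11.14, 11.12 and 10.99 in *Cmah*-null (11.08 ± 0.08, SD, n = 3). All *Cmah*-null arrays lay above all WT arrays. The difference was 0.35 (SE 0.08, 1.27-fold higher, 95% interval 0.15 to 0.54, unadjusted p = 0.0052, adjusted p = 0.42). It was nearly equal within the bead sets, at 0.32 and 0.29, and lay between 0.31 and 0.82 over all 17 alternatives, the highest of these under median scaling. With a variance prior that follows the signal level (trend and robust), *Clpp* (SE 0.21, unadjusted p = 0.14), *Tomm6* (unadjusted p = 0.067) and *Timm44* (unadjusted p = 0.058) all missed the threshold, with adjusted p = 0.67, 0.64 and 0.63 by limma. *Phb2*, a ring-forming chaperone of the inner membrane, read 11.55, 11.48 and 11.39 in WT and 10.81, 11.00 and 11.62 in *Cmah*-null, with the difference of -0.33 (SE 0.22) made by the first and second *Cmah*-null arrays.

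**Figure D2:**
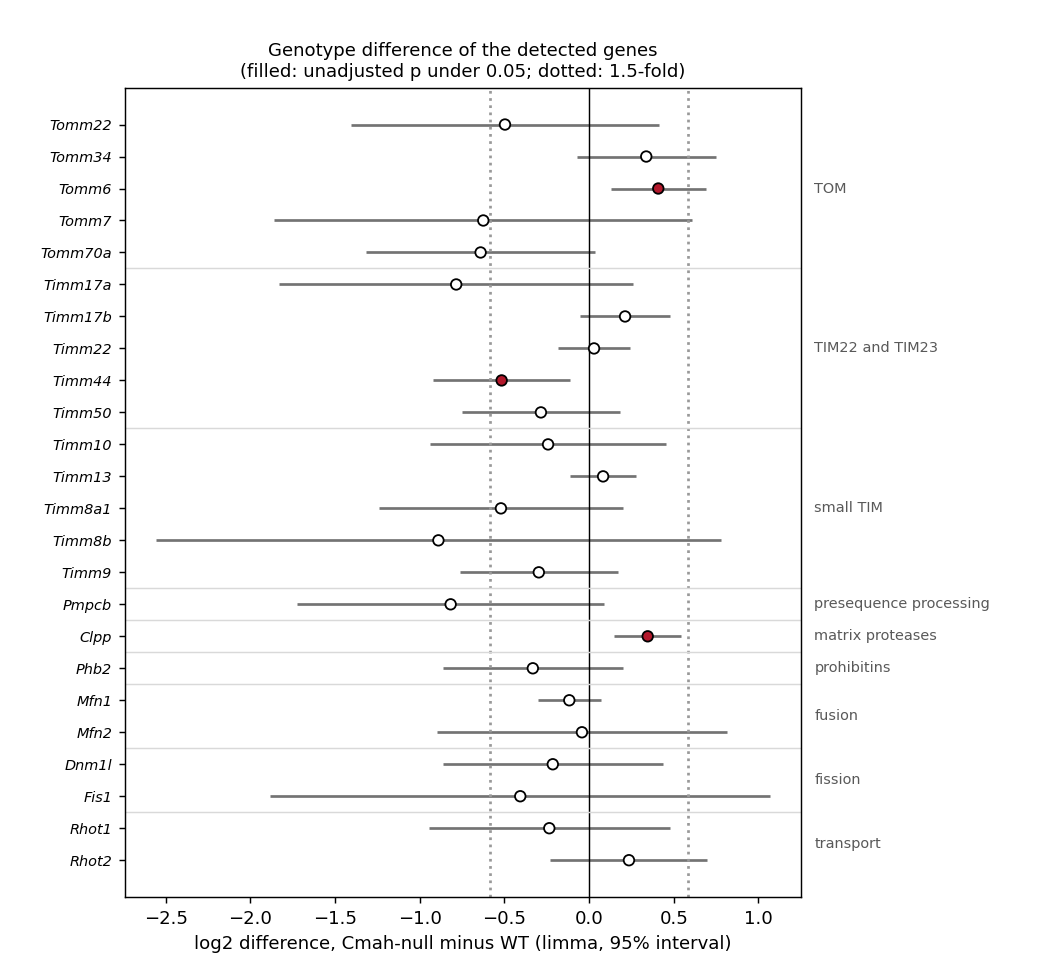
Points give the log2 difference, *Cmah*-null minus WT, of the 24 members detected on all 6 arrays, and lines the 95% interval of limma. *Timm44* (-0.52), *Clpp* (0.35) and *Tomm6* (0.41) have intervals that leave out 0, and the widest interval is that of *Timm8b*.

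The fusion genes had mixed values. *Mfn1*, an outer membrane mitofusin, read 12.30, 12.33 and 12.30 in WT and 12.13, 12.15 and 12.29 in *Cmah*-null, so that the groups only just did not overlap. The difference was -0.12 (SE 0.08, adjusted p = 0.71), and -0.15 with its second detected probe. *Mfn2*, which also tethers mitochondria to the endoplasmic reticulum, read 13.70, 13.66 and 13.43 in WT and 13.15, 13.15 and 14.36 in *Cmah*-null. The first and second *Cmah*-null arrays were the lowest and the third the highest of all 6, and the difference of -0.04 (SE 0.35, adjusted p = 0.98) was -0.44 without *Cmah*-null replicate 3 (unadjusted p = 0.0075, adjusted p = 0.22). The latter p takes *Cmah*-null replicates 1 and 2 as separate samples, although they lay close together over all probes (SD of their differences 0.13). *Opa1*, the inner membrane fusion GTPase, was detected on 2 WT arrays and no *Cmah*-null array, and none of its 3 probes was detected on all arrays.

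*Fis1*, an outer membrane adaptor of fission, read 11.51, 11.33 and 11.12 in WT and 11.60, 11.65 and 9.50 in *Cmah*-null. The first and second *Cmah*-null arrays were the highest and the third the lowest. The difference was -0.41 (SE 0.60, adjusted p = 0.87) with the brighter probe and -0.42 with the other, and became 0.30 without *Cmah*-null replicate 3. *Dnm1l*, the dynamin-related GTPase that constricts the membrane, read 11.32, 10.96 and 10.66 in WT and 10.94, 11.06 and 10.29 in *Cmah*-null. Its difference was -0.21 (SE 0.26, adjusted p = 0.84), -0.38 with its other probe and 0.02 without *Cmah*-null replicate 3.

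*Rhot1* read 12.00, 11.58 and 11.50 in WT and 11.74, 11.79 and 10.85 in *Cmah*-null, a difference of -0.23 (SE 0.29). *Rhot2* read 12.51, 12.41 and 12.40 in WT and 12.50, 12.43 and 13.09 in *Cmah*-null, a difference of 0.24 (SE 0.19, adjusted p = 0.75). A second detected probe of *Rhot2* read 10.28, 10.07 and 9.99 against 9.64, 9.82 and 10.73 and gave -0.05, so the direction of *Rhot2* depended on the probe. *Cmah*-null replicate 3 set both genes apart, *Rhot1* below and *Rhot2* above all other arrays. Of 8 genes with at least 2 probes detected on all arrays, *Rhot2* was the only one whose probes differed in the sign of the difference. Under median scaling the differences of *Mfn1*, *Mfn2*, *Dnm1l*, *Fis1* and *Rhot1* were 0.40, 0.45, 0.25, 0.04 and 0.24, of which those of *Dnm1l*, *Fis1* and *Rhot1* lay below the 0.30 of all detected probes.

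*Cmah*-null replicate 3 stood at least 1.5-fold below each of the other 5 arrays for 8 of the 24 detected members (33.3% against 11.6% of detected probes), namely *Timm8b*, *Fis1*, *Tomm7*, *Timm17a*, *Tomm22*, *Timm8a1*, *Timm10* and *Rhot1*. Against the mean of the other arrays it was 5.54-fold lower for *Timm8b*, 3.85-fold for *Fis1*, 3.42-fold for *Tomm7*, 3.17-fold for *Timm17a* and 2.54-fold for *Tomm22*. It stood at least 1.5-fold above all others for 2 members, *Mfn2* and *Rhot2* (8.33% against 11%). Of the dynamics genes, *Fis1* and *Rhot1* were thus low on this array and *Mfn2* and *Rhot2* high. The bead standard error on it was 2.24% to 4.79% of the signal for the 8 low members and 2.24% to 6.01% over all members.

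The place of the probe in its transcript, counted from the 5′ end, moved with these values. Over 12410 detected probes, the median of *Cmah*-null replicate 3 minus the mean of the other arrays was -0.51 for probes that start 250 to 500 bases into the transcript, -0.04 at 1000 to 1500 bases and 0.36 beyond 5000 bases. Across the detected probes the Spearman correlation of probe start with the deviation of an array from the mean of the others was 0.33 on this array and between -0.20 and -0.08 on the other 5, and across the 24 members it was 0.56 on this array and between -0.71 and -0.18 on the others. These correlations describe genes that share an array. The deviations of a probe sum to 0 over the arrays, so a positive value on 1 array is in part balanced by negative values on the others. Of 10 detected members whose probe starts before base 1000, 6 were among the 8 low ones, and of the 14 others 2 were. The rule for the 8 low members (1.5-fold, 0.585 on the log2 scale) itself put each below its bin, as the lowest bin median was -0.51. *Timm8b* lay at -2.47 against the other arrays, where its bin of probes lay at -0.51. In all, 15 of 24 members, these 8 among them, lay below and 9 above the median of their bin, by a median of -0.35. With each array centred by probe start, the median difference of the members was -0.20, and that of the TIM and TOM members went from -0.26 to -0.15 (from -0.29 to -0.14 relative to detected probes). A probe that starts far into its transcript can lie only in a long transcript. Transcript length was not used here, so place and length cannot be told apart. The part of either in the result was not tested.

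**Figure D3:**
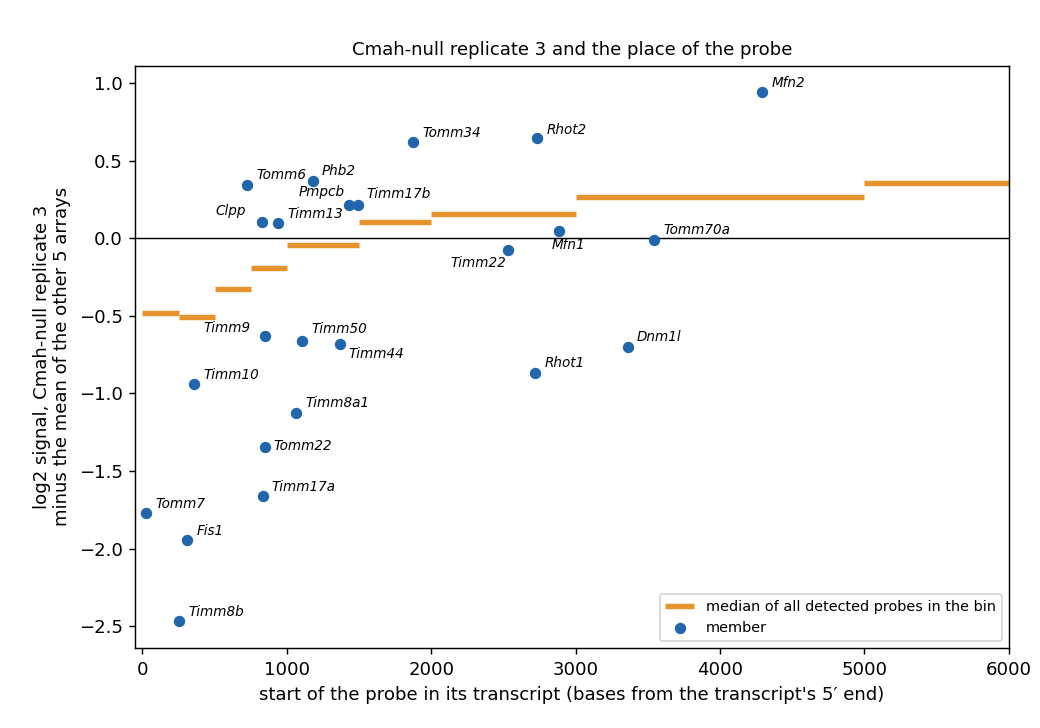
Points are the 24 detected members, with the start of the probe in its transcript on the horizontal axis and the log2 signal of *Cmah*-null replicate 3 minus the mean of the other 5 arrays on the vertical axis, and orange lines are medians of all detected probes in 9 bins. The bin medians are -0.48 and -0.51 in the leftmost bins and climb to 0.36 in the last (drawn for all starts beyond 5000), with *Timm8b*, *Fis1* and *Tomm7* far under their bins and *Mfn2* above its bin.

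Within the bead sets, 10 of the 24 detected members were lower in both sets (41.7% against 22.9% of detected probes) and 5 higher in both (20.8% against 30.4%), and the remaining 9 had opposite signs. *Pmpcb*, *Timm44*, *Tomm70a*, *Timm17a*, *Dnm1l* and *Rhot1* were among those lower in both, and *Clpp*, *Tomm6*, *Tomm34* and *Timm17b* among those higher in both. *Fis1* went from 0.12 to -1.73 and *Mfn2* from -0.55 to 0.81 between the sets. With bead number as a block, 12 members had an unadjusted p under 0.05 (8 lower and 4 higher, against 17.7% of all probes), and none passed adjustment, with adjusted p from 0.10 upward.

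**Figure D4:**
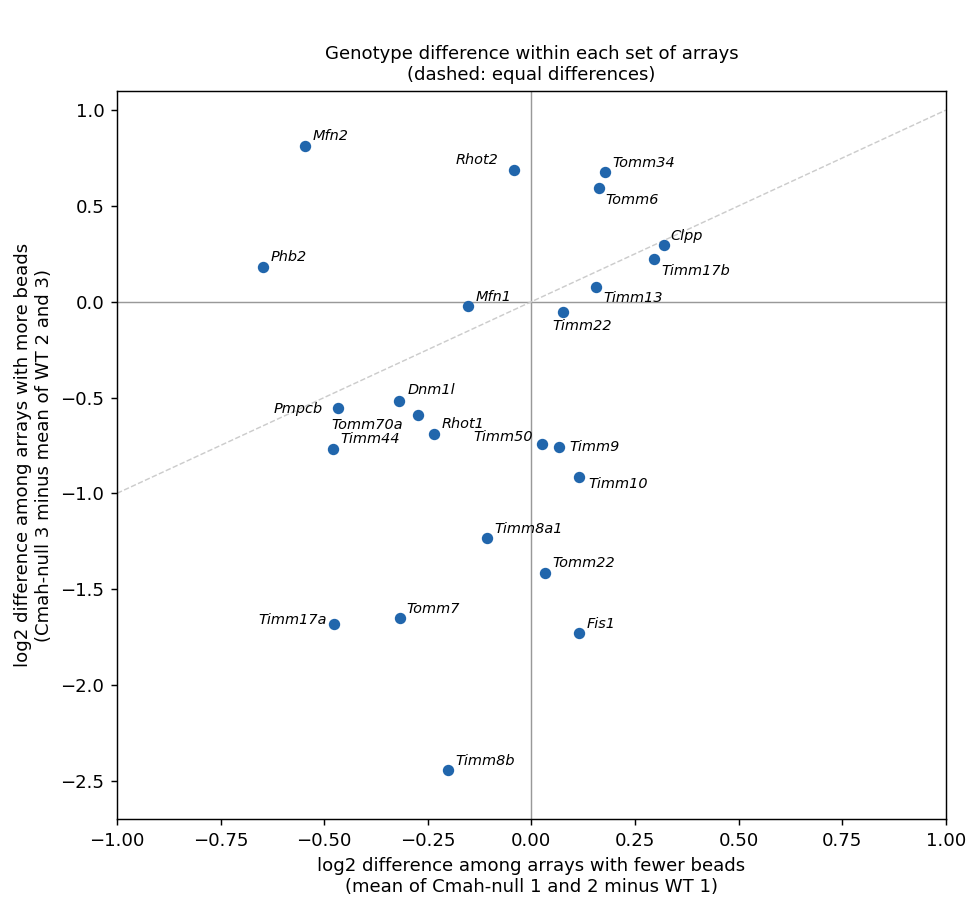
Each point is a detected member, with its log2 difference, *Cmah*-null minus WT, among arrays with fewer beads on the horizontal axis and among arrays with more beads on the vertical axis. *Clpp* (0.32 and 0.29) and *Pmpcb* (-0.47 and -0.55) lie near the dashed line of equal differences, and *Fis1* and *Mfn2* lie in quadrants of opposite sign.

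Other genes of import leaned the same way more evenly over the arrays. Of 24 listed, 19 were matched, 16 of them lower and 3 higher, with a median difference of -0.17, or -0.14 without *Cmah*-null replicate 3. At an unadjusted p under 0.05, 4 were lower and none higher (21.1%, against 8.56% of all probes). *Hspe1*, the co-chaperonin of the matrix, differed by -0.73 (SE 0.24), and its partner *Hspd1* read 12.86, 12.71 and 12.68 in WT and 12.27, 12.31 and 12.43 in *Cmah*-null, a difference of -0.42 (SE 0.09, adjusted p = 0.40). *Immt*, the organiser of cristae junctions, differed by -0.55 (SE 0.15), and *Dnajc15*, a J protein at the import motor, by -0.59 (SE 0.17). *Dnajc19* (-0.77), *Immp2l* (-0.67) and *Grpel1* (-0.59) also passed 1.5-fold, each lowest on *Cmah*-null replicate 3.

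Of 23 other genes of dynamics and quality control, 20 were matched, 16 of them lower and 4 higher, with a median difference of -0.16. Of these, 2 had an unadjusted p under 0.05, both lower (10%, near the 8.56% of all probes and below the 13.3% of detected probes). *Clpx*, the unfoldase that feeds *Clpp*, read 11.16, 10.96 and 11.29 in WT and 10.55, 10.52 and 10.70 in *Cmah*-null, so its groups did not overlap. Its difference was -0.54 (SE 0.11, unadjusted p = 0.0031, adjusted p = 0.40), opposite in sign to that of *Clpp*. *Htra2*, a protease of the intermembrane space, differed by -0.29 (SE 0.08), and the mitophagy receptor *Bnip3l* by -0.64 (SE 0.41). For *Bnip3l*, *Cmah*-null replicates 1 and 2 (12.36 and 12.14) lay within the WT values (12.10 to 12.60), and replicate 3 (10.88) far below.

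Other mitochondrial families were set beside the members. The median difference was -0.26 over the 18 TIM and TOM members and -0.17 over the 8 dynamics members, against -0.69 over 33 complex I subunits, of which 31 were lower, and -0.26 over 72 mitochondrial ribosomal proteins, of which 59 were lower. Without *Cmah*-null replicate 3 these medians were -0.04, 0.02, -0.37 and -0.17 in the same order. Under median scaling those of the TIM and TOM members and of the dynamics members were 0.01 and 0.24, both below the 0.30 of all detected probes. On *Cmah*-null replicates 1 and 2 the TIM and TOM members lay at -0.02 and -0.03 against the WT mean of each probe, where complex I subunits lay at -0.40 and -0.37. The lower median of the complex I subunits was thus seen on all 3 *Cmah*-null arrays, and that of the TIM and TOM members mainly on replicate 3. Whether these families differ from each other was not tested.

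**Figure D5:**
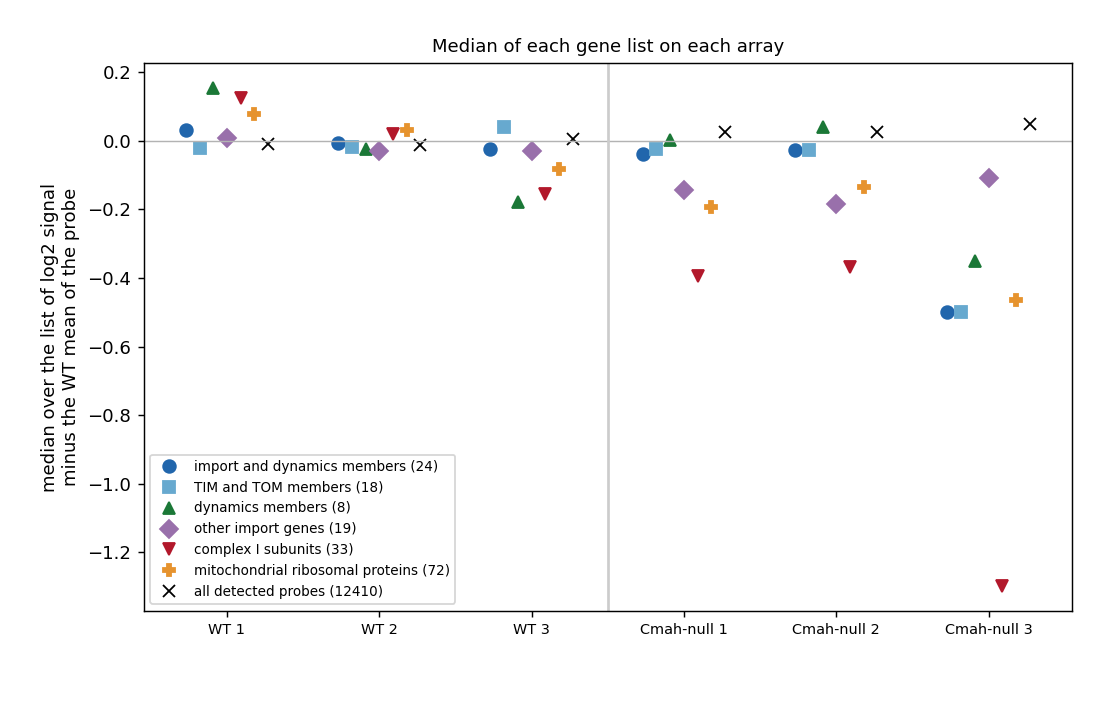
Each symbol is the median over a gene list of the log2 signal minus the WT mean of the same probe, for each of the 6 arrays, with the number of genes in the legend. The TIM and TOM members lie at -0.02 and -0.03 on *Cmah*-null replicates 1 and 2 and at -0.50 on replicate 3, while complex I subunits lie at -0.40, -0.37 and -1.30.

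Markers of other cell types also varied over the arrays. The tissue held cochlear, muscle, fat, blood, bone and nerve transcripts together, with hair cell markers faint: *Pou4f3* and *Slc26a5* were detected on no array, and 3 of 6 hair cell markers on all 6. The 6 brown fat markers, of a tissue rich in mitochondria, were *Ucp1*, *Cidea*, *Elovl3*, *Cox7a1*, *Cox8b* and *Otop1*. All were lower in *Cmah*-null (median difference -1.49). Their summed level ran from 15.35 to 16.19 in WT and from 13.41 to 14.63 in *Cmah*-null, lowest on replicate 3. That sum was led by *Cox8b* (14.95, 14.81 and 14.58 in WT, 13.93, 13.94 and 12.15 in *Cmah*-null). The paper lists *Cox7a1* and *Cox8b* under oxidative phosphorylation and cardiac muscle contraction, so they do not mark brown fat alone. The 9 skeletal muscle markers had a summed level of 17.26 to 18.14 in WT and 17.39 to 17.48 in *Cmah*-null, with a median difference of -0.51. The part of these cells in the differences of the import and dynamics genes was not tested.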

How the data were processed

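Deposited intensity values are the authors' average bead signals of 25697 probes on 6 Illumina MouseRef-8 v2 arrays, linear and without background subtraction. Per the file headers, the scanner software also gave a detection p-value, a bead standard error and the number of beads, which serve here as other measures of each deposited probe. The deposited log2 values were made by the authors by quantile normalization, and they differed from a repeat of it on the raw signals by at most 0.051. Another 12 per-sample columns repeat signals and detection p and were not used, nor were the authors' own comparison columns (fold change, statistic of the local pooled error test and its adjusted p). The aligner or genome build behind probe coordinates is not given in the sources used here, so none is printed.

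Genotypes were compared on the log2 values by the moderated two-sided test of limma (version 3.58.1, R version 4.3.3) without covariates. All probes entered the fit and the Benjamini-Hochberg adjustment, and the code was tested on simulated data. Counts of members were set against the same count over all probes. Genes named with values per array were those with an unadjusted p under 0.05, at 1.5-fold, of fusion and fission, or with disagreeing probes; *Tomm22*, *Timm8a1*, *Timm10*, *Phb2*, *Rhot1* and the array counts of replicate 3 were added after their values were seen. Alternatives were neqc normalization (offset 16), median scaling, a filter on detection on at least 3 arrays, the replicate number or bead number as a block, *Cmah*-null replicates 1 and 2 averaged, a variance prior with trend and robust, each array left out, and other probes per gene. Centring by probe start in 9 bins was chosen after seeing the data. Members and lists were chosen with earlier results of these data known. The methods give 3 mice a group and do not describe the dissection, so p-values measure the spread between these samples, which may be technical, and their number limits the precision.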

Additional observations from a re-analysis of the deposited data

How the results depend on the processing

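No member passed adjustment over all probes under any of 17 alternatives. As each array was left out, 2 to 8 members had an unadjusted p under 0.05, against 4.8% to 13% of all probes. The 8 came without *Cmah*-null replicate 3, where 13% of all probes did. At 1.5-fold with p there were 0 to 2 members, against 1.67% to 4.04% of all probes. Members whose groups did not overlap numbered 7 to 14 (14 without WT replicate 1, 13 without *Cmah*-null replicate 3, 12 without WT replicate 3 or *Cmah*-null replicate 2). The share of all probes that did not overlap was 30.9%, 33.6%, 27.9% and 23.6% in these settings, against 16.4% with all arrays. The median difference ran from -0.26 to 8e-04 over the members (-0.08 without WT replicate 1), from -0.41 to -0.040 over the import members and from -0.23 to 0.025 over the dynamics members, each highest without *Cmah*-null replicate 3. Left-out arrays took *Mfn2* from -0.44 to 0.16, *Fis1* from -0.77 to 0.30 and *Dnm1l* from -0.38 to 0.024.

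Median scaling gave 5 members with p and 4 at 1.5-fold with p (13.6% and 9.68% of all probes), medians of 0.046, 0.013 and 0.24 over members, import and dynamics members, and positive differences for *Dnm1l* (0.25), *Fis1* (0.043), *Mfn1* (0.40) and *Mfn2* (0.45), where detected probes had a median of 0.30. The bead number block gave 12 members with p, 4 at 1.5-fold with p (17.7% and 6.72% of all probes), and 0.13 for *Mfn2*. The variance prior with trend and robust gave 1 member with p and 1 at 1.5-fold with p (7.93% and 3.11% of all probes). It was *Pmpcb* in both cases (unadjusted p = 0.047, adjusted p = 0.63 by limma), while *Clpp*, *Tomm6* and *Timm44* missed the threshold of p. Neqc normalization, probe start centring and averaging *Cmah*-null replicates 1 and 2 each gave 1 member at 1.5-fold with p. In these settings 5.77%, 2.88% and 2.77% of all probes did, in the same order. Averaging these replicates gave 0.16 for *Mfn2*. Averaging all probes of a symbol moved the median of the members to -0.13, and the second-brightest probe to -0.15. The second-brightest and the dimmest detected probe of *Rhot2* gave -0.047. The cause of these changes was not tested.

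Whether replicate numbers pair the samples was not settled. Deviations of same-numbered arrays from their group means correlated at 0.02, -0.17 and 0.01. Differently numbered arrays were not compared in this way, so these values cannot decide it. The replicate block gave 4 members with p and 1 at 1.5-fold with p (8.27% and 3.16% of all probes). The latter was *Pmpcb* (-0.82, unadjusted p = 0.029, adjusted p = 0.56 by limma). A set of 14 members was followed: those with an unadjusted p under 0.05, at 1.5-fold, of fusion and fission, and *Rhot2*. For these, 174 values under the alternatives differed from the main value, and 13 of these had the opposite sign. Among other members with array values given, *Rhot1*, *Phb2* and *Timm10* also changed sign, reaching 0.24, 0.17 and 0.10 under median scaling. *Tomm22* and *Timm8a1* stayed negative. Under median scaling 11 of all 31 members had the opposite sign, but the median of detected probes itself moved to 0.30. Relative to that median *Rhot1*, *Phb2* and *Timm10* lay at -0.06, -0.13 and -0.20, and *Mfn1* and *Mfn2* at 0.10 and 0.15. The 7 members near background have no usable difference on these arrays.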
